A study of Homo sapiens with 30 samples.

Results

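The missense-correcting tRNA (mc-tRNA) Arg-tRNA_Trp(CCA) was compared with its reporter-only control in HEK293, a long established cell line from human embryonic kidney. The libraries were chosen by their titles: 3 were labelled EGFP(R96W)+Arg-tRNA_Trp(CCA) and 3 were labelled EGFP(R96W), so 6 of the 30 libraries of the series entered the comparison. All 6 came from cells whose genotype is given as wt, and all carried a plasmid for the EGFP(R96W)-mCherry fusion, a mistranslation reporter in which EGFP has tryptophan in place of an arginine. The 3 mc-tRNA libraries came from cells that also received the mc-tRNA. The control cells expressed the same reporter, so an effect of the reporter or of the transfection procedure was in both groups and was not measured. The titles of the control libraries name no other tRNA. Effects of the added construct, or of an added tRNA as such, therefore cannot be told apart from effects of arginine at UGG codons. Per the labels' protocols, cells were transfected by lipofection, mCherry-positive cells were sorted 48 h later, RNA was polyA-selected, and strand-specific TruSeq libraries were sequenced. The labels state that the replicates were independent. The comparison asks how messenger RNA differed when cells with the reporter also held the tRNA directed at its mutated codon.

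A tRNA pairs its anticodon with a codon and delivers the amino acid with which a synthetase has charged it. The anticodon CCA reads UGG, the tryptophan codon, so a tRNA with this anticodon that carries arginine can place arginine at tryptophan codons of other messages as well as of the reporter. Misfolded proteins in the cytosol are known to release heat shock factors, which raise transcription of HSP70, HSP90 and their co-chaperones. Misfolded proteins in the endoplasmic reticulum (ER) act through the sensors IRE1, PERK and ATF6 in the unfolded protein response. Phosphorylation of eIF2alpha starts the integrated stress response, in which ATF4 and CHOP are the best known transcription factors.

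The 6 libraries held 41990681 to 49845521 counts assigned to genes, and levels are given as CPM, the count relative to library size, which was adjusted by the trimmed mean of M values (TMM). The floor of 3 counts in a library equalled 0.0602 to 0.0714 CPM before the TMM adjustment. On a principal component analysis of the 6 libraries the first component held 51.8% of the variance and set the control libraries (-47.3 to -40.9) apart from the mc-tRNA libraries (41.5 to 46.4). The second component held 16.7% and set replicate 3 of both groups (-25.2 and -42.5) apart from the other 4 libraries (11.6 to 26.6). Where a group's count by more than 1.5 times, or the call of a gene selected by the naming rules given with the processing, depended on replicate 3, this is said beside it. Genes named beyond those rules were not followed in this way. Markers of HEK293 cells were present in all 6 libraries, with PAX2 at 2.24 to 3.19 CPM, LHX1 at 2.44 to 3.33 CPM and VIM at 429 to 608 CPM. Of 16 markers of other cell types, 8 were high enough to be tested. Their sum was 18.5 to 21.6 CPM in the control libraries and 18.97 to 23.9 CPM in the mc-tRNA libraries, and CD3E, HBB and KRT5 had 0 counts. Of the 8, ALB and COL1A1 were called higher and COL3A1 lower, and the calls of ALB and COL1A1 were lost under several other settings.

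A large share of the transcriptome differed with the mc-tRNA, mostly by small amounts. Of 22321 genes tested with edgeR, 9480 had a Benjamini-Hochberg adjusted p under 0.05 (42.5%), and such genes are described below as having risen or fallen. The split was near even, with 4628 genes higher (20.7%) and 4852 lower (21.7%). The 3 and 3 libraries did not overlap for 10671 genes (47.8%), 22.1% with all mc-tRNA libraries above and 25.7% with all below. A change of at least 2-fold was seen for far fewer genes, 778 higher (3.49%) and 905 lower (4.05%). The median log2 change of all tested genes was -0.03. These percentages are the background against which the counts for each gene group below are to be read. They are not matched for transcript level. The share that rose was larger among genes of high level, as given below. The samples were bulk RNA, so fewer cells with a transcript and less of it per cell cannot be told apart.

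**Figure D1:**
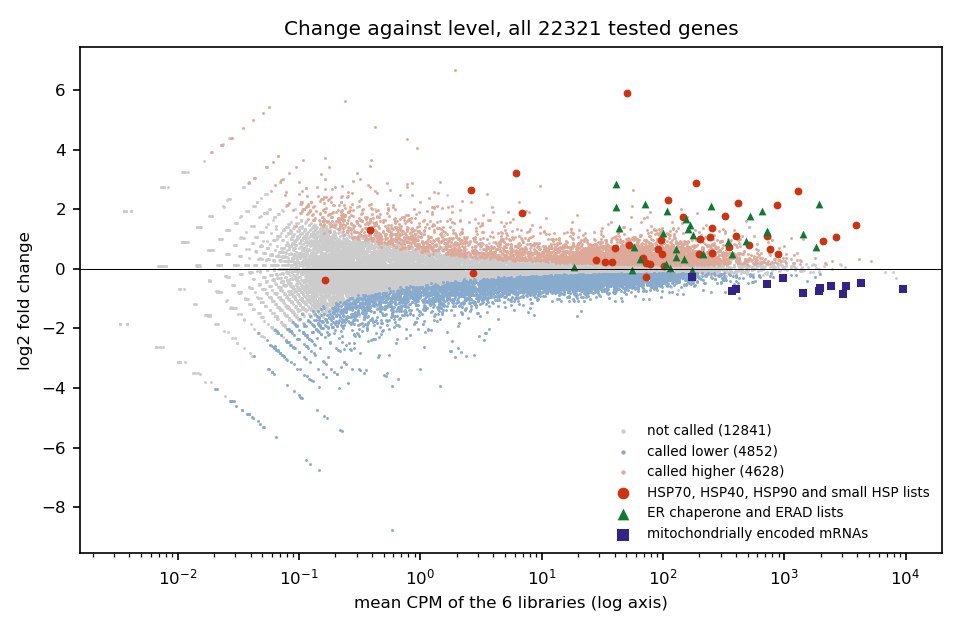
Log2 change with the mc-tRNA (vertical axis) against mean CPM of the 6 libraries (horizontal log axis) for the 22321 tested genes. The 4628 genes called higher and 4852 called lower are coloured; above 100 CPM, 74 genes rose at least 2-fold and 0 fell that far.

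The direction of change differed with the level of the transcript. Among 2349 genes with a mean over 100 CPM, 1137 rose and 289 fell, 74 rose at least 2-fold and 0 fell that far, and the median log2 change was 0.16. Among 4598 genes at 1 to 10 CPM the order was opposite, with 627 higher and 1469 lower and a median of -0.17. These levels were not corrected for transcript length. The scaling mattered for this split: with library totals in place of TMM, 3197 genes were higher and 6976 lower, the median of all genes moved to -0.16, and 592 genes over 100 CPM were lower. Groups of small changes near the median are therefore given below with the library-total counts where those differ by more than 1.5 times.

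**Figure D2:**
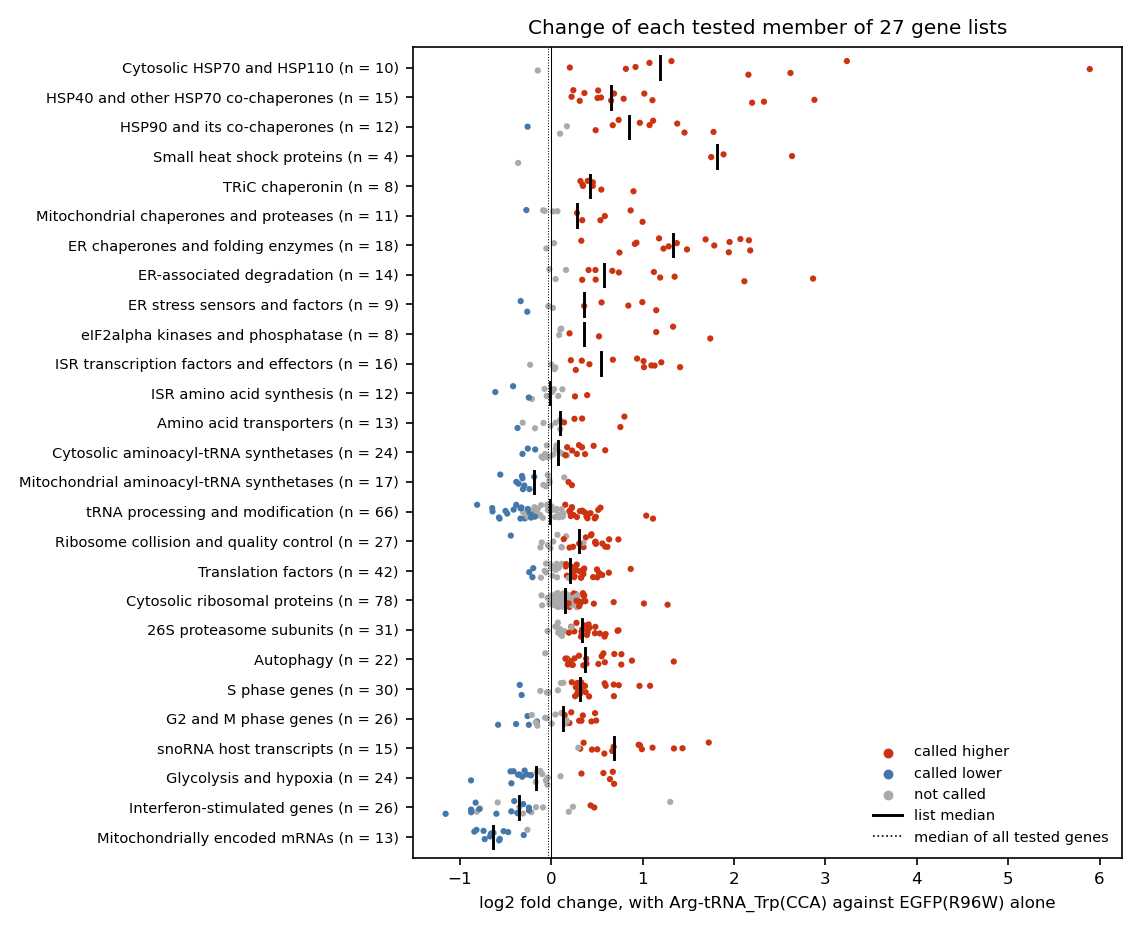
Log2 change with the mc-tRNA for every tested member of 27 gene groups (points), with the group median as a bar and the median of all tested genes as a dotted line at -0.03. Cytosolic chaperones, ER chaperones and snoRNA host transcripts lie to the right, and the mitochondrially encoded mRNAs lie to the left.

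The stress-inducible HSP70 genes had some of the steepest rises of all genes. HSPA6 (HSP70B', a strictly inducible HSP70; ENSG00000173110.7) stood at 1.56, 2.36 and 1.05 CPM in the 3 control libraries and at 122, 121 and 56.6 CPM in the 3 mc-tRNA libraries. The groups were far apart, although mc-tRNA replicate 3 held less than the other two. The log2 change was 5.89 ± 0.28 (standard error; edgeR adjusted p = 3.76e-13). HSPA1B, which encodes the main inducible HSP70, was at 495, 326 and 269 CPM and then at 2358, 2385 and 1944 CPM. Every mc-tRNA library lay above every control library, with a log2 change of 2.62 ± 0.18 (adjusted p = 2.01e-10). HSPA1A codes for nearly the same protein and rose by 3.23 ± 0.18. Reads from HSPA1A and HSPA1B, and from HSPA6 and its copy HSPA7, share long stretches, so with uniquely aligned reads the division between the copies is uncertain. HSPH1, an HSP110 that acts as a nucleotide exchange factor for HSP70, went from 355, 329.9 and 274 CPM to 1509, 1457 and 1314 CPM. Its change was 2.16 ± 0.09 (adjusted p = 4.46e-20), with no overlap.

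The constitutive members moved less. HSPA8, the housekeeping HSC70, was at 1570.4, 1435 and 1305 CPM in the control libraries and 2842, 3079 and 2249.8 CPM with the mc-tRNA, a log2 change of 0.92 ± 0.08 (adjusted p = 4.89e-12). HSPA4L rose by 1.08 ± 0.13, HSPA4 by 0.82 ± 0.06 and HSPA14, which works at the ribosome, by 0.20 ± 0.07. HSPA1L, a testis-enriched HSP70, rose by 1.32 ± 0.44 from levels under 1 CPM. HSPA2 was the member not called (log2 change -0.15 ± 0.16, adjusted p = 0.483). In all, 9 of 10 cytosolic HSP70 and HSP110 genes rose and 0 fell, against 20.7% and 21.7% of all tested genes, with a median of 1.20.

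All 15 tested HSP70 co-chaperones rose, with a median log2 change of 0.66. BAG3 links HSP70 and small heat shock proteins to selective autophagy. It stood at 45.7, 43.9 and 44.4 CPM in the controls and at 375, 358 and 254 CPM with the mc-tRNA, and its change of 2.88 ± 0.09 (adjusted p = 4.52e-22) was the largest of the group. DNAJB1, the J-domain protein that delivers clients to HSP70, went from 160.3, 143.5 and 141.4 to 744, 754 and 545 CPM. All 3 mc-tRNA libraries were above the controls, with mc-tRNA replicate 3 the lowest of them, and the change was 2.20 ± 0.08 (adjusted p = 1.19e-21). The J-domain genes DNAJB4 (2.33 ± 0.11), DNAJA1 (1.11 ± 0.08) and DNAJB6 (1.02 ± 0.06) also rose. The weakest rises were those of BAG2 (0.22 ± 0.08), an inhibitor of the ubiquitin ligase CHIP, and of HSPBP1 (0.24 ± 0.09), a nucleotide exchange factor. DNAJA4 was too low to be tested.

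Of 12 genes for HSP90 and its co-chaperones, 9 rose and 1 fell, with a median of 0.85. HSP90AA1, the inducible cytosolic HSP90, was at 2265, 2152 and 1819.9 CPM in the control libraries. It was at 5842, 6024 and 5274 CPM in the mc-tRNA libraries, the largest gain in CPM of any gene, and its log2 change was 1.46 ± 0.08 (adjusted p = 6.11e-17). The constitutive HSP90AB1 rose by 1.08 ± 0.07, from 1708, 1720.1 and 1776 to 3818, 4072 and 3087 CPM. Among the co-chaperones, CHORDC1 rose by 1.78 ± 0.11, AHSA1, which activates the HSP90 ATPase, by 1.38 ± 0.07, and STIP1, which bridges HSP70 and HSP90, by 1.11 ± 0.07. FKBP5, an immunophilin of steroid receptor complexes, was the member that fell, by 0.26 on the log2 scale.

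Small heat shock proteins hold unfolded clients without using ATP. Of 4 tested genes 3 rose and 0 fell, with a median of 1.82. HSPB1 (HSP27) was at 63.7, 62.0 and 74.6 CPM in the controls and at 219, 221 and 233 CPM with the mc-tRNA. The ranges were well apart, and the change was 1.75 ± 0.08 (adjusted p = 3.14e-19). CRYAB (alphaB-crystallin) rose by 2.63 ± 0.29 from 0.303, 0.820 and 1.10 to 5.33, 5.28 and 3.03 CPM, and HSPB8, the partner of BAG3, by 1.89 ± 0.15. HSPB6 had a log2 change of -0.36 ± 0.59 (adjusted p = 0.656) from under 1 CPM.

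The TRiC chaperonin, which folds actin and tubulin, changed modestly. All 8 subunit genes rose, with a median of 0.43, from CCT5 (0.32 ± 0.06) to TCP1 (0.90 ± 0.07). Of 11 mitochondrial chaperones and proteases, 6 rose and 1 fell (5 and 3 with library totals), with a median of 0.28. The matrix chaperonin pair HSPD1 (981, 978 and 905 to 1968, 2039 and 1722 CPM, change 1.00 ± 0.06) and HSPE1 (0.87 ± 0.13) rose most. TRAP1, the mitochondrial HSP90, fell by 0.27 on the log2 scale, a call that was lost without replicate 3 of both groups (adjusted p = 0.0534). Of the heat shock factors, HSF1 (0.41 ± 0.07) and HSF2 (0.31 ± 0.06) rose slightly. HSF4 was called lower (-0.39 ± 0.15), and this call was lost under several other settings.

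**Figure D3:**
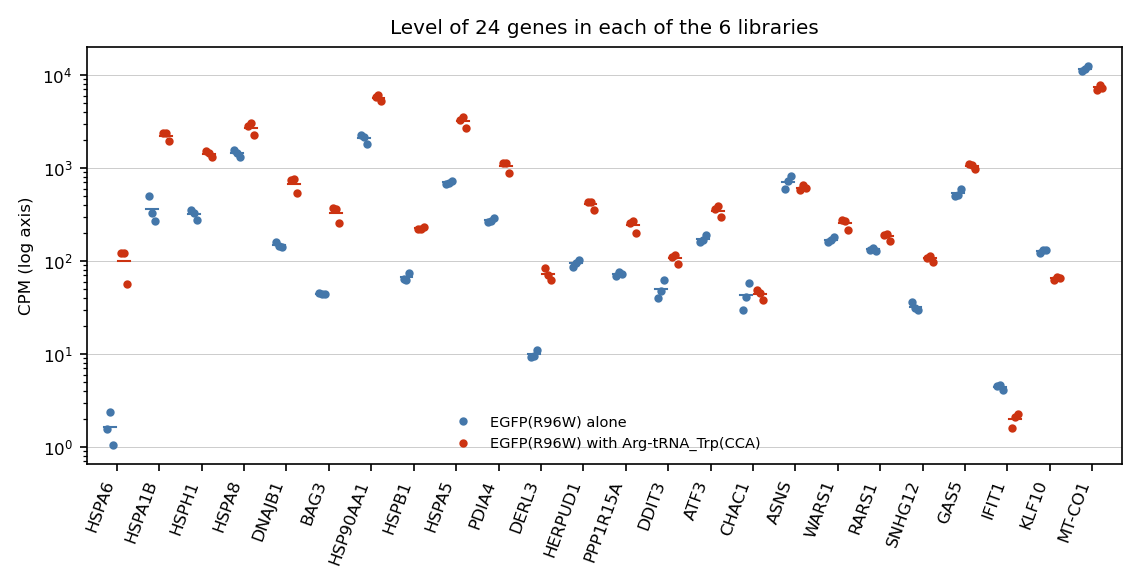
CPM (vertical log axis) of 24 genes in each of the 3 control and 3 mc-tRNA libraries, with a dash at each group mean. HSPA6 stood at 1.05 to 2.36 CPM in the controls and 56.6 to 122 CPM with the mc-tRNA; CHAC1 and ASNS overlapped between the groups.

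Promoters of the cytosolic chaperones were searched for the heat shock element, the DNA motif bound by heat shock factors in the form GAA, TTC and GAA with 2 free bases between each, or TTC, GAA and TTC on the other strand. Copies could overlap. The window was 250 bases before to 50 bases after each RefSeq gene start (GRCh38.p14), and 166 of 27305 genes in the table held the motif (0.608%). The motif was in 2 of 9 HSP70 and HSP110 genes with a window, 2 of 14 co-chaperone genes and 3 of 10 HSP90 genes, and in 0 of 7 TRiC genes and 0 of 3 small heat shock protein genes. Among tested genes it was found in 30 of 3287 that rose (0.913%) and 11 of 3365 that fell (0.327%). A match is a description of the sequence and not of binding. The 250 bases before the start of 4 rising chaperone genes are shown because they hold the motif, which is in capitals. CHORDC1 (chr11:90223050-90223299, minus strand) has 3 overlapping copies 60 to 38 bases before the start, and HSPD1 (chr2:197499841-197500090, minus strand) has 2 copies 245 to 228 bases before it. HSPA6 (chr1:161524290-161524539, plus strand) has 1 copy 74 to 62 bases before the start, and HSP90AA1 (chr14:102087045-102087294, minus strand) has 1 copy 88 to 76 bases before it.
CHORDC1: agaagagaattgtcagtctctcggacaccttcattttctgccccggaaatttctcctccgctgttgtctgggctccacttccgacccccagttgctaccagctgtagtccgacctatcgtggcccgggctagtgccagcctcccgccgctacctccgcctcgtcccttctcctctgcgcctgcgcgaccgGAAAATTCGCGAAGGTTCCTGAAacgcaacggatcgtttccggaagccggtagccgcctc
HSPD1: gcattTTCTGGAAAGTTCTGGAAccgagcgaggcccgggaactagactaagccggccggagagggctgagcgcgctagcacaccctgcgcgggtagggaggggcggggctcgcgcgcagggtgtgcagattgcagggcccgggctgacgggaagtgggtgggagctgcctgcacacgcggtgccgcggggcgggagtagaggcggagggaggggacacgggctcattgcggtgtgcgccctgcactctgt
HSPA6: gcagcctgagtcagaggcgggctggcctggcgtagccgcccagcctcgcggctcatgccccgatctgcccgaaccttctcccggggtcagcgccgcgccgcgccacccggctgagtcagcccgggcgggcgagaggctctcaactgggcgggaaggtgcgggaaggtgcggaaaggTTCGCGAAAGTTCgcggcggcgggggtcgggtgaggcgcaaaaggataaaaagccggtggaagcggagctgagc
HSP90AA1: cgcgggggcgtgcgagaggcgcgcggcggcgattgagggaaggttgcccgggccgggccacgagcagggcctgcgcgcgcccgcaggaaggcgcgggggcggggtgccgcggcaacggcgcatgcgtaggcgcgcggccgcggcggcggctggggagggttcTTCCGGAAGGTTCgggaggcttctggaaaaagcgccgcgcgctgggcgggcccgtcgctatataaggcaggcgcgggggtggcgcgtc

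The chaperones of the ER rose nearly as a whole. Of 18 genes, 16 rose and 0 fell with TMM scaling, and 12 rose at least 2-fold, with a median log2 change of 1.33; with library totals 1 gene was called lower. HSPA5 (BiP, the ER HSP70 that also restrains the stress sensors; ENSG00000044574.7) was at 679.9, 691 and 727 CPM in the control libraries and at 3307, 3516 and 2666 CPM with the mc-tRNA. The 3 mc-tRNA libraries were all well above the controls, and the change was 2.18 ± 0.07 (adjusted p = 1.98e-22). PDIA4, a protein disulfide isomerase, went from 262, 267 and 289.6 to 1121, 1137 and 893 CPM. Its change was 1.94 ± 0.07 (adjusted p = 1.98e-22), again with no overlap. The BiP co-chaperones DNAJB9 (2.16 ± 0.10), DNAJB11 (1.95 ± 0.07) and SDF2L1 (2.07 ± 0.09), and the exchange factor HYOU1 (1.78 ± 0.08), rose by similar amounts. Lectin chaperones rose less, CALR by 1.23 ± 0.07 and CANX by 0.75 ± 0.06. HSP90B1 (GRP94, the ER HSP90) went from 886, 907 and 854 to 2051, 2072 and 1876 CPM, a change of 1.18 ± 0.07. The oxidase ERO1A (0.03 ± 0.07, adjusted p = 0.765) and the reductase DNAJC10 (-0.05 ± 0.08, adjusted p = 0.607) were not called.

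ER-associated degradation exports misfolded ER proteins to the proteasome. Of its 14 genes, 11 rose and 0 fell with TMM scaling (1 lower with library totals), with a median of 0.58. DERL3, a channel component, was at 9.18, 9.50 and 11.1 CPM in the controls and at 83.5, 71.3 and 62.2 CPM with the mc-tRNA. It had the largest change of the group (2.86 ± 0.10, adjusted p = 6.98e-22), whereas its relative DERL1 was not called (-0.02 ± 0.06, adjusted p = 0.808). HERPUD1, a scaffold of the ligase complex, went from 85.5, 94.6 and 103 to 436, 435 and 352 CPM, a change of 2.11 ± 0.08. The ligase pair SEL1L (1.35 ± 0.08) and SYVN1 (1.19 ± 0.06) and the cofactor UFD1 (1.12 ± 0.06) also rose at least 2-fold. VCP, the ATPase that extracts the substrates, rose by 0.49 ± 0.06.

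Among 9 stress sensors and their transcription factors, 5 rose and 2 fell. EIF2AK3, which encodes PERK, rose by 1.15 ± 0.07, ERN1, which encodes IRE1alpha, by 0.55 ± 0.07, and ATF6 by 0.36 ± 0.07. XBP1, whose message IRE1alpha splices, went from 264, 295 and 300.2 to 572, 618 and 526 CPM, a change of 1.00 ± 0.07 with no overlap. Gene counts do not separate its spliced form. The ATF6 relative ATF6B fell by 0.26 and MBTPS2, a protease that releases ATF6, fell by 0.33 on the log2 scale.

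The ER stress element, CCAAT and CCACG with 9 free bases between them or CGTGG and ATTGG on the other strand, was searched in the same windows. It was rare: 25 of 27305 genes in the table held it (0.0916%). Of 17 ER chaperone genes with a window 7 held it (41.2%), and 0 of 10 degradation genes did. Of 17 tested genes with the motif, 13 rose, 1 fell (SYNPO) and the rest were not called. The genes that rose included XBP1 and, outside the lists, FICD, SERP1 and ALG12, which were picked out after their values were seen. FRG2B (2.14 ± 0.55, from a mean of 0.0849 CPM in the controls) and TRIM5 (1.24 ± 0.10) also held the motif and rose. The promoters shown were also chosen with the values known: HSP90B1 (chr12:103930160-103930409, plus strand) has 2 copies within 194 to 71 bases before the start, HSPA5 (chr9:125241344-125241593, minus strand) has 1 copy 66 to 48 bases before it, and CRELD2 (chr22:49918384-49918633, plus strand) has 1 copy 80 to 62 bases before it. They are printed because the motif, in capitals, is close to the start of genes that rose.
HSP90B1: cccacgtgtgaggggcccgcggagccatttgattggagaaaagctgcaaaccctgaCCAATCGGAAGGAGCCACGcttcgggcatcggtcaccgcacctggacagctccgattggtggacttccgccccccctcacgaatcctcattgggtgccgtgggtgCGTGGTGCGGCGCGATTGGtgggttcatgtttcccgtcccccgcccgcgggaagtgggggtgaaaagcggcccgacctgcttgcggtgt
HSPA5: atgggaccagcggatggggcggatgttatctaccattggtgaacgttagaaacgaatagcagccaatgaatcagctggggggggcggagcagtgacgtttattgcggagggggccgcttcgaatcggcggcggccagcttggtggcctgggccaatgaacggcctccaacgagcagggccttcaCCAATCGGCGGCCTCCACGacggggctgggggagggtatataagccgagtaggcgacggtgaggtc
CRELD2: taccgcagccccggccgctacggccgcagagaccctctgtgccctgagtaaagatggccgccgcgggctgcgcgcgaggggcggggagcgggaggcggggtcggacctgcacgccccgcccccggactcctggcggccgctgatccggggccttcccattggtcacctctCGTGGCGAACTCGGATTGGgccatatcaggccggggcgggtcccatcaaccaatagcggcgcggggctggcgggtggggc

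Of 8 genes that control phosphorylation of eIF2alpha 5 rose and 0 fell, with a median of 0.36, and both phosphatase subunits had the largest rises. PPP1R15A (GADD34), the inducible subunit that directs phosphatase to eIF2alpha, was at 69.5, 75.3 and 72.3 CPM in the controls and at 257, 269.7 and 198 CPM with the mc-tRNA. The groups were far apart, and the change was 1.74 ± 0.09 (adjusted p = 4.50e-16). PPP1R15B, its constitutive relative, rose by 1.33 ± 0.06 from 176, 184 and 178 to 459.9, 459 and 437 CPM. Of the 4 eIF2alpha kinases, only the ER kinase EIF2AK3 rose, while log2 changes were 0.10 ± 0.06 for EIF2AK4 (GCN2), 0.11 ± 0.07 for EIF2AK2 (PKR) and 0.09 ± 0.05 for EIF2AK1 (HRI), none of them called.

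The transcription factors and effectors of the integrated stress response mostly rose. Of 16 genes 12 rose and 0 fell with TMM scaling, with a median of 0.55. ATF3, a stress-induced repressor, was at 159.5, 169 and 189 CPM in the controls and at 362, 386 and 298 CPM with the mc-tRNA. The groups did not overlap and the change was 1.02 ± 0.08 (adjusted p = 1.21e-11). DDIT3, which encodes CHOP, went from 40.0, 47.4 and 62.6 to 109, 117 and 93.8 CPM, with control replicate 3 the highest of its group, and the change was 1.10 ± 0.14 (adjusted p = 1.57e-06). TRIB3, a pseudokinase that CHOP induces, went from 40.7, 51.3 and 82.6 to 133.9, 137.9 and 110.3 CPM, a change of 1.13 ± 0.21. ATF4 itself, controlled mainly at translation, rose by 0.27 ± 0.06. CHAC1, a glutathione-degrading enzyme and well known ATF4 target, was at 30.1, 40.8 and 58.4 CPM and 48.9, 45.5 and 37.9 CPM. Its groups overlapped and its change of 0.04 ± 0.22 was not called (adjusted p = 0.909). DDIT4 (-0.23 ± 0.10, adjusted p = 0.0792) was not called either, and 1 of the 16 genes was called lower with the replicate block, with library totals, without the filter on low counts and without control replicate 1.

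Enzymes of amino acid synthesis that ATF4 is known to induce did not rise as a group. Of 12 genes 2 rose and 3 fell (1 and 4 with library totals), with a median of -0.02, and 1 rose when replicate 1 or 2 of either group was left out. ASNS (asparagine synthetase) was at 593, 717 and 830.1 CPM in the controls and 587, 655 and 606 CPM with the mc-tRNA. The groups overlapped, and the change of -0.21 ± 0.12 was not called (adjusted p = 0.184), although it became so with library totals (-0.34, adjusted p = 0.0261), with the replicate block (-0.20, adjusted p = 0.0267) and without control replicate 1 (-0.33, adjusted p = 0.0445). PHGDH, the first enzyme of serine synthesis, went from 575, 618 and 763 to 491, 547 and 428 CPM, a change of -0.42 ± 0.09 (adjusted p = 0.000333). PCK2 (-0.61 ± 0.17) and CBS (-0.24 ± 0.07) also fell, and ALDH18A1, of proline synthesis, rose (0.39 ± 0.06). Control replicate 3 was the highest control library for each of the 3 genes that fell. Without it the calls of PCK2 (adjusted p = 0.0667) and CBS (adjusted p = 0.0765) were lost, that of PHGDH was lost without replicate 3 of both groups (adjusted p = 0.0597), and without both 5 genes of the list were higher and 0 lower.

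Amino acid transporters were mixed, with 5 of 13 higher and 1 lower (3 and 3 with library totals or without control replicate 1) and a median of 0.10. SLC3A2, the heavy chain shared by several transporters, rose from 313, 312 and 347 to 581, 600.0 and 461 CPM (0.76 ± 0.09). SLC7A5, the light chain LAT1 that carries tryptophan, was at 236, 281 and 338 CPM and 353, 341 and 326 CPM. The groups overlapped, and the call (0.25 ± 0.08, adjusted p = 0.00938) was lost with library totals (adjusted p = 0.195), in the fit of the 6 libraries alone (adjusted p = 0.072) and without control replicate 1 (adjusted p = 0.161). SLC7A1, the main arginine transporter, rose by 0.34 ± 0.07, and SLC7A2, a second arginine transporter, fell by 0.48 on the log2 scale. ARG2, the mitochondrial arginase, went from 23.7, 23.6 and 22.1 to 46.3, 49.9 and 38.1 CPM, a rise of 0.95 ± 0.09 (adjusted p = 8.14e-11). Of 13 tested genes that handle tryptophan or arginine, 6 rose and 5 fell, but 3 fell without control replicate 3, without mc-tRNA replicate 3 or without both, and without the filter on low counts.

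The synthetases for the amino acids concerned both rose. WARS1 charges tRNA with tryptophan in the cytosol. It was at 158.5, 167 and 182 CPM in the controls and at 279, 271 and 215 CPM with the mc-tRNA, without overlap, and had the largest change of the 24 cytosolic synthetase genes (0.59 ± 0.08, adjusted p = 6.21e-07). RARS1, for arginine, went from 131.1, 139.2 and 129 to 192, 193 and 166 CPM, also without overlap (0.46 ± 0.06, adjusted p = 2.22e-07). Across the list 9 rose and 3 fell (6 and 9 with library totals), with a median of 0.07. Others that rose were YARS1 (0.37 ± 0.07) and GARS1 (0.34 ± 0.06), and QARS1 fell by 0.31 on the log2 scale, a call lost without replicate 3 of both groups (adjusted p = 0.0678), as was that of LARS1 (adjusted p = 0.119), which left 1 gene of the list lower. The mitochondrial synthetases went mostly down: 2 of 17 rose and 9 fell (0 and 11 with library totals), with a median of -0.19, and 1 rose without control replicate 2, control replicate 3 or mc-tRNA replicate 2 and 0 without mc-tRNA replicate 1. SARS2 (-0.56 ± 0.12), CARS2 (-0.38 ± 0.07) and AARS2 (-0.36 ± 0.07) were the lowest. WARS2 (-0.02 ± 0.07) and RARS2 (-0.09 ± 0.07), the mitochondrial partners for tryptophan and arginine, were not called, although RARS2 was with library totals (-0.21, adjusted p = 0.00771).

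Enzymes that process and modify tRNA moved in both directions, with 21 of 66 higher and 18 lower (12 and 30 with library totals). YRDC, which makes the t6A base next to anticodons, rose from 27.9, 26.1 and 23.6 to 59.0, 60.3 and 48.7 CPM (1.11 ± 0.09). CTU1, a thiolase of the wobble base, rose by 1.04 ± 0.19, with mc-tRNA replicate 3 the highest at 13.2 CPM. TRDMT1, a cytosine methyltransferase, fell from 21.7, 22.7 and 20.7 to 11.4, 11.3 and 14.4 CPM (-0.81 ± 0.10), and PUS10 (-0.64 ± 0.09), a pseudouridine synthase, also fell. Of 21 genes for RNA polymerase III and its factors, which transcribe tRNA genes, 9 rose and 5 fell (3 fell without control replicate 1). BRF2 (0.55 ± 0.10) and the repressor MAF1 (0.43 ± 0.07) were among the first, and POLR3GL (-0.59 ± 0.09) and POLR3B (-0.54 ± 0.08) among the second.

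Among factors that sense and clear stalled ribosomes more rose than fell, by small amounts. Of 27 genes 16 rose and 1 fell (4 fell with library totals and 2 without control replicate 3), with a median of 0.31. Neither this group nor the translation factors below were matched for level. Of all tested genes, 1137 of 2349 over 100 CPM rose, as did 2323 of 7796 at 10 to 100 CPM. ZNF598, the ligase that marks collided ribosomes, went from 63.1, 65.9 and 69.3 to 107, 110.3 and 113 CPM, and the change of 0.74 ± 0.08 (adjusted p = 7.41e-10) was the largest of the group. RNF10, a ligase of stalled small subunits, rose by 0.63 ± 0.06, and the rescue factors HBS1L and PELO by 0.56 ± 0.05 and 0.48 ± 0.07. NEMF, which tails nascent chains on split ribosomes, was called lower (-0.44 ± 0.17, adjusted p = 0.0472), a call lost under 10 of the other settings. Among translation factors 24 of 42 rose and 3 fell (15 and 7 with library totals). The release factor ETF1 (0.63 ± 0.06) and the initiation factors EIF5 (0.56 ± 0.09) and EIF4A2 (0.53 ± 0.06) had large rises, and EIF4B fell by 0.24 on the log2 scale. EIF4A1 rose by 0.87 ± 0.12, but its gene overlaps a readthrough gene, which makes this value uncertain.

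Ribosomal protein genes changed little. Of 78, 24 rose and 0 fell with TMM scaling, with a median of 0.15, but the count was 8 higher and 3 lower with library totals, 12 higher without control replicate 1 or control replicate 2, and 9 without mc-tRNA replicate 2. RPS10 (1.27 ± 0.13), RPL17 (1.01 ± 0.08) and RPL36A (0.68 ± 0.08) had the largest rises. Each of them overlaps a readthrough gene, and reads that fall in overlapping genes may be left uncounted, so these values are uncertain. Of 27 ribosome biogenesis genes 9 rose and 8 fell (5 and 12 with library totals), and 5 fell without mc-tRNA replicate 3 or without replicate 3 of both groups. The snoRNP protein NOP58 rose by 0.47 ± 0.07, and UTP20, of the small subunit processome, fell from 73.1, 67.5 and 49.2 to 36.9, 34.4 and 35.1 CPM (-0.84 ± 0.12).

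Protein degradation genes rose broadly. Of 31 proteasome subunits 21 rose and 0 fell with TMM scaling (1 lower with library totals), with a median of 0.33. PSMD6, of the lid, was at 115 to 121 CPM in the controls and at 182 to 209 CPM with the mc-tRNA (0.74 ± 0.06), and the base ATPases PSMC4 (0.73 ± 0.09) and PSMC2 (0.58 ± 0.06) followed. ZFAND2A (AIRAP), a proteasome-associated heat shock gene, was at 14.9, 14.9 and 16.9 CPM in the controls and at 109, 109.9 and 74.3 CPM with the mc-tRNA. It had the largest change (2.65 ± 0.11, adjusted p = 9.70e-18) of 12 genes for ubiquitin and proteasome regulation, of which 7 rose and 1 fell (6 and 2 with library totals). The polyubiquitin gene UBB (0.52 ± 0.09) was among the 7. Of 22 autophagy genes 20 rose and 0 fell with TMM scaling (12 and 1 with library totals), with a median of 0.37. WIPI1, a phosphoinositide-binding protein of the early autophagosome, went from 8.71, 10.0 and 10.9 to 25.9, 26.8 and 22.3 CPM (1.34 ± 0.10). The lysosomal protein LAMP1 (0.88 ± 0.08), the membrane tag MAP1LC3B (0.77 ± 0.07), the transcription factor TFE3 (0.77 ± 0.07) and the receptor SQSTM1 (0.57 ± 0.07) also rose.

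Messages of the mitochondrial genome fell together. Of 13 genes 12 fell and 0 rose, with a median of -0.63, and the share of all counts on mitochondrial genes was 4.53%, 4.64% and 5.07% in the controls and 2.90%, 3.25% and 2.95% with the mc-tRNA. MT-CO1, the core of cytochrome oxidase, was at 10985, 11524 and 12501 CPM in the controls and at 6957, 7868 and 7196 CPM with the mc-tRNA. The groups did not overlap, and MT-CO1 lost more CPM than any other gene (-0.67 ± 0.06, adjusted p = 7.98e-11). MT-CO3 (-0.84 ± 0.07), MT-ND2 (-0.82 ± 0.09) and MT-CYB (-0.74 ± 0.09) had the steepest falls. MT-ND6, which is encoded on the opposite strand to the others, was not called (-0.26 ± 0.26, adjusted p = 0.446). Mitochondrial transcripts also vary with the quality of cells and RNA, whose part in these results was not tested.

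Of 24 glycolysis and hypoxia genes, 5 rose and 11 fell (18 fell with library totals), with a median of -0.16. The glucose transporters SLC2A1 (0.69 ± 0.12) and SLC2A3 (0.67 ± 0.09) and hexokinase HK2 (0.57 ± 0.07) rose, while ALDOC (11.1, 10.98 and 14.1 to 5.95, 7.67 and 5.99 CPM, -0.88 ± 0.13) and LDHA (-0.44 ± 0.07) fell. Cholesterol synthesis was divided, with 6 of 24 higher and 6 lower (2 and 14 with library totals). The number higher was 3 without control replicate 2, without control replicate 3 and in the fit of the 6 libraries alone. MVD (0.41 ± 0.08) was the highest, and STARD4 (-0.55 ± 0.12), a sterol carrier, the lowest.

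Transcripts that host small nucleolar RNAs (snoRNAs) rose. Their exons carry early stop codons, so translation is known to lead to their decay, and their introns hold snoRNAs, which guide modification of ribosomal RNA. Of 15 host transcripts 14 rose and 0 fell, with a median of 0.68. SNHG12 was at 35.8, 31.3 and 29.7 CPM in the controls and at 108, 114 and 97.8 CPM with the mc-tRNA. The ranges were far apart, and its change of 1.72 ± 0.07 (adjusted p = 7.51e-20) was the largest. ZFAS1 (42.4, 39.8 and 47.2 to 117, 120.3 and 113 CPM) rose by 1.44 ± 0.10, SNHG17 by 1.34 ± 0.10 and SNHG1 by 1.11 ± 0.07. GAS5, the best known of them, went from 497, 514 and 594 to 1096, 1081 and 971 CPM, a change of 0.97 ± 0.11 (adjusted p = 7.26e-08). SNHG6 was not called (0.30 ± 0.15, adjusted p = 0.111).

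The snoRNAs themselves, with small Cajal body RNAs, were the gene type in which the largest share rose: 57 rose (42.9%), 50 of them at least 2-fold, 76 were not called and 0 fell with TMM scaling, with a median of 0.95. The number that rose was 47 to 61 under the other settings, and up to 3 fell. For comparison, 25.8% of 15127 protein-coding genes rose and 24.9% fell, and 6.32% of 3862 long non-coding RNAs rose and 19.7% fell. The libraries were polyA-selected and the snoRNA counts were low, with a median of 0.255 CPM in the controls, and mature snoRNAs and unspliced introns of the host cannot be told apart in them. The strand option of the counting is not given in the sources used here. Of 106 snoRNAs inside a tested host gene 52 rose: the host also rose for 31 of them, was not called for 20 and fell for 1 (SNORA11 in MAGED2). For the 54 snoRNAs that were not called, the host rose for 23. The median host change was 0.18, over 86 different hosts of which 40 rose and 8 fell. SNORA33 (2.12 ± 0.23, adjusted p = 2.2e-09) lies in RPS12, which was not called (0.20 ± 0.12). SNORD14E, inside HSPA8, rose by 2.74 ± 0.32, above its host. It was among the 10 largest rises of called genes without overlap and with a mean of at least 1 CPM in either group. Several snoRNAs of lower level had larger rises, such as SNORD72 (3.45 ± 0.45). SNORA33 and SNORA11 were picked out after their values were seen.

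**Figure D4:**
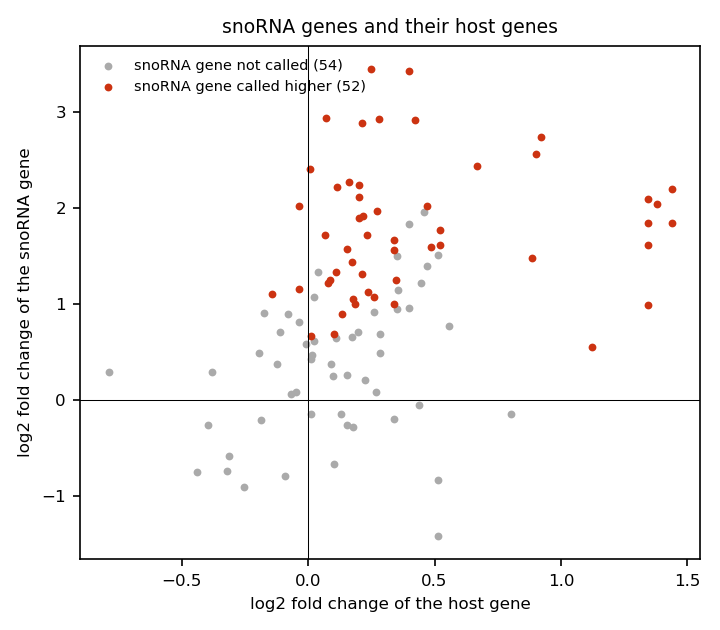
Log2 change of each snoRNA (vertical axis) against that of its host gene (horizontal axis) for 106 snoRNAs with a tested host. The 52 that rose lie mostly above the line of equal change, and the 54 others were not called.

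The decay factors and splicing factors that act on such transcripts showed smaller changes. Of 14 nonsense-mediated decay genes 7 rose and 2 fell (5 fell with library totals). SMG5 (0.61 ± 0.07) and SMG8 (0.56 ± 0.08) were the highest, the helicase UPF1 rose by 0.36 ± 0.05, and RBM8A fell by 0.29 on the log2 scale. Of 16 SR proteins and CLK kinases 6 rose and 1 fell (5 and 5 with library totals, and 2 fell without control replicate 3). The kinases CLK3 (68.9, 63.4 and 68.0 to 174, 177 and 136.5 CPM, 1.28 ± 0.07) and CLK1 (0.90 ± 0.07), which phosphorylate SR proteins, had the largest rises, and SRSF6 fell by 0.26 on the log2 scale.

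Genes of S phase were higher, and genes of G2 and M phase were split. Of 30 S phase genes 21 rose and 2 fell (6 fell with library totals), with a median of 0.31. CDC6, which loads the replicative helicase, went from 145.5, 146.1 and 135.4 to 337, 324 and 243 CPM (1.08 ± 0.08, adjusted p = 6.51e-14). FEN1 (0.97 ± 0.08) and MCM5 (0.68 ± 0.08) rose as well, and TYMS fell by 0.34 on the log2 scale. Of 26 G2 and M phase genes 9 rose and 5 fell (5 and 8 with library totals), and 3 fell without control replicate 1, control replicate 2 or mc-tRNA replicate 3 and in the fit of the 6 libraries alone. TPX2 (0.49 ± 0.07) and CDC20 (0.48 ± 0.10) rose, and TOP2A went from 857, 877 and 769.7 to 532, 554 and 588 CPM (-0.58 ± 0.11). Of 19 tested replication-dependent histone genes, whose messages lack a polyA tail as a rule, 5 rose and 0 fell with TMM scaling (3 and 1 with library totals), led by H2BC12 (0.90 ± 0.08). The number that rose was also 3 without control replicate 3, mc-tRNA replicate 1 or mc-tRNA replicate 2.

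Targets of p53 were divided, with 10 of 22 higher and 3 lower (7 and 5 with library totals) and a median of 0.13. BTG2, an antiproliferative gene, went from 45.8, 39.9 and 39.4 to 93.4, 96.4 and 77.4 CPM (1.10 ± 0.09), and the death receptor gene TNFRSF10B, which CHOP also induces, rose by 0.95 ± 0.06. CDKN1A (p21) was at 73.3, 71.7 and 80.3 CPM and 89.1, 83.9 and 77.6 CPM. The groups overlapped, and it was not called (0.15 ± 0.08, adjusted p = 0.128), except without replicate 3 of both groups (0.25, adjusted p = 0.036). MDM2, the p53 ligase, fell by 0.45 on the log2 scale. In the BCL2 family 5 of 16 rose and 2 fell (1 without control replicate 3 or mc-tRNA replicate 1 and in several other settings), with the antiapoptotic MCL1 (0.78 ± 0.06) and the BH3-only BAD (0.87 ± 0.08) higher and BMF (-0.82 ± 0.10) lower.

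Immediate early genes, which respond within minutes to growth signals, were more often higher. Of 23 tested, 13 rose and 4 fell, with a median of 0.42, and 2 fell without control replicate 1 or without mc-tRNA replicate 1. The nuclear receptor NR4A2 (0.95 ± 0.11), IER5, itself a target of HSF1 (0.90 ± 0.08), and JUN (0.56 ± 0.10) were among those that rose. KLF10, a TGF-beta response gene, was between 120.5 and 130.2 CPM in the controls and at 62.9, 67.7 and 65.5 CPM with the mc-tRNA, a fall without overlap (-0.96 ± 0.07, adjusted p = 9.79e-14). FOS was not called (0.01 ± 0.29, adjusted p = 0.978). Of 13 MAP kinase phosphatase and GADD45 genes 8 rose and 0 fell, led by DUSP8 (20.3, 18.2 and 18.0 to 57.3, 54.6 and 57.1 CPM, 1.58 ± 0.08). Of 16 NF-kB feedback and inflammatory genes 3 rose and 2 fell, with a median of 0.03, and 1 fell without control replicate 1 or 3 or mc-tRNA replicate 1 or 3.

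Interferon-stimulated genes were lower. Of 26 tested 12 fell and 2 rose, with a median of -0.35. IFIT1, which binds viral RNA caps, was at 4.57, 4.60 and 4.14 CPM in the controls and at 1.62, 2.09 and 2.25 CPM with the mc-tRNA. The groups did not overlap, and the change was -1.15 ± 0.15 (adjusted p = 8.11e-08). IFI35 (-0.88 ± 0.21) and DDX60 (-0.83 ± 0.15) fell too. The 2 that rose, ISG15 (0.47 ± 0.14) and IFI27 (0.43 ± 0.14), lost their calls with library totals and without control replicate 1, and IFI27 also without replicate 3 of both groups (adjusted p = 0.0579). Of 18 NRF2 targets 5 rose and 7 fell, but 4 fell without mc-tRNA replicate 1 and in the fit of the 6 libraries alone, and 3 without mc-tRNA replicate 3 or replicate 3 of both groups. Among the 5 that rose, 2 did so at least 2-fold, and the highest log2 change in the list was 1.88. SRXN1 was called higher, but its call was lost without mc-tRNA replicate 3 (1.03, edgeR adjusted p = 0.0905). The antioxidant enzyme TXNRD1 rose by 0.39 ± 0.06. HMOX1 (heme oxygenase), went from 44.2, 40.0 and 45.5 to 32.7, 31.9 and 22.6 CPM, a change of -0.57 ± 0.16 that lost its call without replicate 3 of both groups. Of 5 tested genes of the metal response, MTF1, its transcription factor, rose (0.92 ± 0.07) and the metallothionein MT2A was not called (-0.31 ± 0.16, adjusted p = 0.104).

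Outside the gene groups, the largest rises included genes of low level. APOL6 (chromosome 22, 35648395 to 35668409, plus strand), an apolipoprotein L, stood at 0.0202, 0.120 and 0.183 CPM in the controls and at 2.09, 1.91 and 1.37 CPM with the mc-tRNA, a change of 4.05 ± 0.43. SDCBP2 (chromosome 20, 1309909 to 1329239, minus strand), which encodes syntenin-2, went from 2.43, 2.38 and 2.47 to 18.1, 17.4 and 15.1 CPM (2.80 ± 0.13), and ESRP1, a splicing regulator of epithelia, rose by 2.84 ± 0.30. The processed pseudogene HSPA5P1 (2.91 ± 0.30) resembles HSPA5, and their reads cannot be told apart with certainty. KCNT1, a potassium channel gene, had the largest fitted rise of the genes named here (6.68 ± 1.76), but it rested on mc-tRNA replicate 3. The mc-tRNA libraries stood at 0.125, 0.130 and 11.3 CPM, and without replicate 3 the change was 1.79 (edgeR adjusted p = 0.468).

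The largest fall among called genes with a symbol, no overlap and a mean of at least 1 CPM in either group was that of CALHM1. This calcium channel gene lies on chromosome 10 (103453387 to 103458888, minus strand). It was at 1.37, 1.5 and 0.663 CPM in the controls and had 0 counts in all 3 mc-tRNA libraries. The 3 control libraries held 172 counts in all, so the level with the mc-tRNA was at least 52.1-fold lower, with 3 counts over the group as the floor. The call held when any 1 library was left out (adjusted p of 8.21e-10 to 1.11e-07). EVPL (chromosome 17, 76004502 to 76027452, minus strand), which encodes envoplakin of the cornified envelope, went from 2.91, 2.98 and 2.35 to 0.149, 0.239 and 0.137 CPM, a change of -3.94 ± 0.33 (adjusted p = 9.07e-12). MYPN, a sarcomere protein gene, fell from 4.95, 4.48 and 3.16 to 0.623, 0.608 and 0.433 CPM (-2.92 ± 0.33). The other 7 of the 10 largest falls were non-coding: LINC00485 (-3.93 ± 0.45), JAZF1-AS1 (-3.70 ± 0.47), F11-AS1 (-2.78 ± 0.26), LINC00304 (-2.76 ± 0.25) and the pseudogenes IFNA22P (-3.35 ± 0.35), TYRO3P (-2.97 ± 0.23) and TNRC18P1 (-2.88 ± 0.15).

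Genes were also described by their content of UGG codons (TGG in DNA), the codon read by the mc-tRNA. Of 795 tested genes with no such codon, 31.3% rose and 18.4% fell, with a median log2 change of 0.07. The rest were put in 4 bins of near equal size by TGG codons per 100 codons. From the lowest to the highest bin the percentage that rose was 30.3, 26.5, 23.9 and 21.4, and the percentage that fell was 22.8, 25.7, 25.8 and 26.8. Across 15048 genes Spearman's rho between the log2 change and TGG codons per 100 codons was -0.083. The same rho was -0.104 for the change with the cysteine mc-tRNA and -0.086 for that with the histidine mc-tRNA, whose anticodons read other codons. These are correlations across genes, which are not independent replicates, and the change with the tryptophan mc-tRNA also had a rho of -0.106 with the number of codons.

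The effect was set beside those of Arg-tRNA_Cys(GCA) and Arg-tRNA_His(GUG), each against its own reporter, EGFP(R96C) or EGFP(R96H), with 3 libraries per group. No control library was shared. The difference between effects passed the test for 9756 genes against the cysteine mc-tRNA (43.7%; 20% with the tryptophan effect above and 23.7% with it below) and for 5083 genes against the histidine mc-tRNA (22.8%; 12.1% above and 10.7% below). The scaling changed the first of these most. With library totals the median difference to the cysteine effect moved from 0.00 to 0.42, 8951 differences were positive and 2500 negative, and the median difference to the histidine effect moved from -0.03 to -0.13.

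The tryptophan effect was smaller than the cysteine effect for most cytosolic chaperones and integrated stress response factors under both scalings. It was not confined to them. For MAP kinase phosphatase and GADD45 genes 9 differences were negative and 1 positive (8 and 2 with library totals). For NF-kB feedback and inflammatory genes 11 were negative and 1 positive (8 and 1 with library totals). HSPA6 changed by 5.89 with the tryptophan mc-tRNA, 14.16 with the cysteine mc-tRNA and 0.12 with the histidine mc-tRNA. The differences were -8.27 ± 0.51 and 5.77 ± 0.61, and both passed the test. For DNAJB1 the 3 changes were 2.20, 7.27 and 0.36. Of 10 HSP70 and HSP110 genes 8 differences to cysteine were negative and 0 positive (8 and 1 with library totals), all 8 TRiC differences were negative (6 with library totals), and so were 15 of 16 for the integrated stress response factors under both scalings. CHAC1 (0.04 against 4.04, adjusted p of the difference 8.37e-10) and ASNS (-0.21 against 1.84, difference -2.05 ± 0.18) differed in that direction. For amino acid synthesis 10 of 12 differences were negative and 1 positive (8 and 2 with library totals).

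For ER chaperones the direction of the differences was mixed. Their median change was 1.33 with the tryptophan mc-tRNA and 1.57 with the cysteine mc-tRNA, and 13 differences were negative and 4 positive (7 and 5 with library totals). CRELD2 (1.37 against 0.63, difference 0.74 ± 0.10) and SDF2L1 (2.07 against 1.43, difference 0.64 ± 0.12) rose more with the tryptophan mc-tRNA. HSPA5 rose less (2.18 against 3.76, difference -1.59 ± 0.10). In ER-associated degradation 1 difference was positive and 3 were negative (9 and 2 with library totals). DERL3, of that group, rose more with the tryptophan mc-tRNA (2.86 against 2.01, difference 0.85 ± 0.14). The snoRNA host transcripts also stood higher with the tryptophan mc-tRNA, with 9 positive and 2 negative differences of 15 (11 and 1 with library totals), as for SNHG12 (1.72 against 0.26, difference 1.46 ± 0.10). The mitochondrially encoded mRNAs gave no direction that held: 6 of 13 differences to cysteine were negative and 0 positive with TMM, and 6 were positive and 0 negative with library totals.

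Against the histidine mc-tRNA the tryptophan effect was larger for most members of these stress groups, with both scalings. Differences were positive for 16 of 18 ER chaperones, 7 of 10 HSP70 and HSP110 genes and 14 of 16 integrated stress response factors (16, 7 and 13 with library totals). They were also positive for 11 of 15 snoRNA hosts (10 with library totals), and 0 were negative in any of these groups. For HSPA5 the changes were 2.18 and 0.05, with a difference of 2.13 ± 0.10. For DDIT3 they were 1.10 and -0.37, with a difference of 1.47 ± 0.20. The mitochondrially encoded mRNAs went the other way, with 12 of 13 differences negative under both scalings, as for MT-CO1 (-0.67 against 0.23, difference -0.90 ± 0.09).

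**Figure D5:**
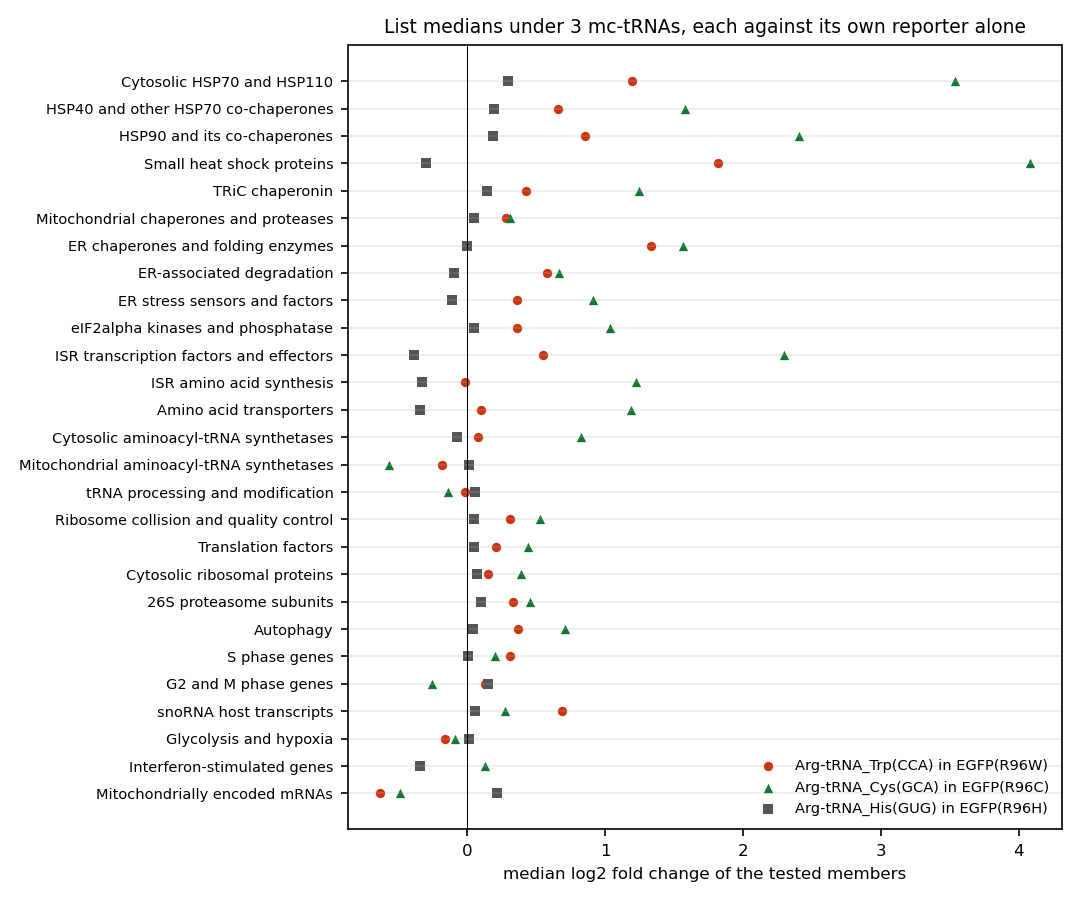
Median log2 change of 27 gene groups with the tryptophan, cysteine and histidine mc-tRNAs, each against its own reporter (3 and 3 libraries). For HSP70 and HSP110 genes the medians are 1.20, 3.54 and 0.30; for ER chaperones they are 1.33, 1.57 and 0.00.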

How the data were processed

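Messenger RNA was measured in 30 libraries of 10 groups with 3 libraries each, and the 6 EGFP(R96W) libraries are described here. The authors deposited raw read counts per Ensembl gene, one for each library. Per the submitters' processing notes STAR, SAMtools and featureCounts were used with hg38, and per the file headers paired-end reads with unique alignments were counted. For the versions, annotation and strand setting of that step, the sources used here give nothing. Uniquely counted reads understate near-identical and overlapping genes.

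From 58370 features in each library, 92 spike-in sequences were dropped. Symbols of 41805 genes came from the supplied symbol table and 911 from GENCODE release 29, and coordinates are those of that release on GRCh38. Groups came from the sample titles. All 30 libraries were fitted with edgeR 4.0.16 in R 4.3.3 (TMM, filterByExpr, robust quasi-likelihood, 10 group means, 20 residual degrees of freedom), and 3 tests were made: the effect, and its difference from the cysteine and histidine effects. A Benjamini-Hochberg adjusted p under 0.05 was a call, over all 22321 tested genes. A value after ± is a standard error of the log2 change, derived from the test. It is the absolute log2 change divided by the square root of the F statistic. In simulated counts for the effect (21277 genes) the fit called 22% of 50 genes set to a 1.25-fold difference, 53.2% of 47 at 1.5-fold, 72% of 50 at 2-fold and 86% of 50 at 4-fold. It also called 5 of 21080 genes with no difference. Far fewer genes were changed in the simulation than were called in the data (42.5%), and all other genes had the same mean in every group. The adjusted p threshold therefore acts differently in the 2 settings, and these rates do not carry over to the data.

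Members of the 44 gene lists, and the choice of this comparison, were made with earlier results of these data known. Genes named were the 10 largest rises and 10 largest falls without overlap and with a mean of at least 1 CPM in either group, the 5 largest gains and losses in CPM, up to 4 called members per list and direction with the largest change, a fixed set of stress genes, and the 5 largest differences in each direction; genes named beyond these were picked with their values known. Of 848 tested list members 680 had a RefSeq promoter window. Alternatives were other scalings (median-ratio factors, library totals), no filter on low counts, DESeq2 1.42.0, fits on 6 or 24 libraries, a replicate block, and leaving out each library. Leaving out replicate 3 of both groups was added after seeing the data.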

Additional observations from a re-analysis of the deposited data

Results flagged for a closer look

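Each of the following genes was singled out because the test of the difference between 2 mc-tRNA effects passed at an adjusted p under 0.05 (edgeR), and it was among the 5 largest in its direction. Values are log2 differences, the tryptophan effect minus the other.

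Against the cysteine mc-tRNA the most negative differences were HSPA6 (-8.27), the synaptic vesicle gene SYT4 (-8.13), CRYAB (-7.88), GPA33 (-7.38) and the desmosomal cadherin gene DSC1 (-7.15). In SYT4 and GPA33 the tryptophan effect was not called (-1.31 ± 1.26 and -1.01 ± 0.70), and the cysteine effects were 6.82 and 6.36. The SYT4 difference lost its call without control replicate 3 (-6.32, adjusted p = 0.087) and without replicate 3 of both groups (-6.65, adjusted p = 0.0924). The most positive were the pseudogene RPL21P118 (3.16), the snoRNA host SNHG25 (2.78), PPP1R3G (2.76), the protease gene KLK14 (2.69) and SSPOP (2.60). Of these 5, KLK14 was called with the tryptophan mc-tRNA (1.37 ± 0.30), and the libraries of the other 4 overlapped between the groups.

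Against the histidine mc-tRNA the most positive differences were HSPA6 (5.77), APOL6 (3.40), DERL3 (3.17), CRYAB (3.03) and GDAP1L1 (3.03). The most negative were CALHM1 (-5.28), the interferon pseudogene IFNA22P (-4.90), EVPL (-4.65), EEF1A1-AS1 (-3.59) and FAM183BP (-3.45). CALHM1 had 0 counts in the 3 mc-tRNA libraries, so this value depends on the fit and is no bound, and it lost its call when any 1 mc-tRNA library was left out (adjusted p of 0.0574 to 0.0619). Without counting on a stated strand, EEF1A1-AS1 cannot be told apart from reads of the gene it overlaps.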

How the results depend on the processing

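Of 80 counts over all genes and settings 77 stayed within 1.5 times the value reported. With library totals 8951 differences to the cysteine effect were positive and 2500 negative, and 3775 differences to the histidine effect were negative. No gene called here was called in the opposite direction under any setting run. Genes higher and lower numbered 4718 and 4762 with median-ratio factors, 4570 and 4378 without the filter, 4775 and 4789 with DESeq2, 4056 and 4188 from the 6 libraries alone, and 4718 and 4526 from 24 libraries. Leaving out 1 library gave 4072 to 4544 higher and 4040 to 4432 lower, and leaving out replicate 3 of both groups gave 4359 and 4133.

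The main fit did not pair the groups by replicate number. Deviations of same-numbered libraries correlated at 0.163, 0.0555 and 0.163 over 15020 genes. Those of the other pairs correlated at -0.176 to 0.0681, and 5 of 6 libraries correlated best with their own number. A weak structure shared by replicate number is therefore possible, and its source was not tested. With the replicate block 4763 genes were higher and 5014 lower.

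Single genes were followed across the settings only if the rules given above selected them, and not if they were named beyond these rules. Among those followed for the tryptophan effect the direction changed for 3, none of them called. CHAC1 was -0.0925 and FOS -0.1214 with library totals, and WARS2 was 7e-04 from 24 libraries. Leaving out 1 library gave -0.1669 to 0.3166 for CHAC1, -0.1885 to 0.1833 for FOS and -0.0515 to 0.0128 for WARS2. The causes were not tested. Of 7578 genes under 1 CPM, which have the fewest counts, 541 were called higher and 911 lower.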

Other observations

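Of 3862 long non-coding RNAs 244 rose (6.32%, against 20.7% of all tested genes) and 759 fell (19.7%, against 21.7%). Their median log2 change was -0.28 at a median control level of 0.450 CPM. Of 2494 pseudogenes 335 rose (13.4%) and 236 fell (9.46%), both smaller shares than over all genes, with a median of 0.27, and 204 rose without mc-tRNA replicate 3. Their median control level was 0.342 CPM. The shares over all genes are not matched for the low levels of these 2 gene types. Of the 7578 tested genes under 1 CPM, 541 rose and 911 fell. Among HEK293 markers the intermediate filament genes were divided: NES (-0.70), NEFM (-0.37) and VIM (-0.22) fell, and the keratins KRT8 (0.66) and KRT18 (0.57) rose. The C/EBP-ATF response element, TGATGNAAT or ATTNCATCA, was found in the promoter windows of 28 of 3287 genes that rose (0.852%) and 37 of 3365 that fell (1.10%), against 108 of 13386 tested genes with a window (0.807%). It was in 1 of 14 integrated stress response factors (7.14%), 2 of 19 cytosolic synthetase genes (10.5%) and 0 of 8 amino acid synthesis genes.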
